A study of Mus musculus with 9 samples.

Results

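The T cell and NK cell genes are 36 mouse genes chosen by name, which code for chains of the T cell receptor complex, its coreceptors and signalling proteins, surface molecules and cytokine receptors of lymphocytes, cytotoxic granule proteins, NK cell receptors and GIMAP GTPases. They are 36 of the 36492 gene names on the non-control spots of the array, and 48 probes carry these names. Of the 36 genes, 31 were tested, among 16462 genes tested in all: those whose signal exceeded background throughout some group, that is on each of its 3 arrays. The arrays compared tumour-associated macrophages (TAMs) from fibrosarcomas of C57BL/6J mice, parted by their surface level of the macrophage marker F4/80, with peritoneal exudate cells (PECs) of the same strain as control macrophages. There were 3 arrays of F4/80low TAMs, 3 of F4/80high TAMs and 3 of PECs, each made from total RNA. Replicates are stated to be biological, and the labels give no age, sex, tumour line, gate or way of parting the cells.

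T cells recognise antigen through a receptor whose signal is carried by the CD3 chains and the zeta chain. The kinases LCK and ZAP70 and the adaptor LAT pass this signal on. NK cells lack that receptor and are steered by activating and inhibitory receptors of their own, and both cell types kill targets with perforin and granzymes. The T cell receptor complex is a defining feature of T cells, whereas single members of the gene set, such as CD4, also occur on other cells.

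The measured value is the brightness of a probe, given here as a level: log2 of the array's processed intensity minus the 75th percentile of that array, so that 0 is the 75th percentile and each further unit stands for 2 times the brightness. The levels of different probes are not comparable with each other. Differences between groups were tested with limma across all genes, and a gene was called at a Benjamini-Hochberg adjusted p under 0.05. Where a probe exceeded background on every array of a group and on none of another, its dim value is only an upper limit. The difference is then given as "at least N-fold", with each dim array set to the higher of its own value and the dimmest signal that was above background on it. Between 36.1% and 38.3% of 59305 spots were above background on an array, and none was saturated.

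The labels name every sample as macrophages. The 7 macrophage markers were above background on all 3 F4/80high TAM arrays and all 3 PEC arrays, and 6 of them on all 3 F4/80low TAM arrays. Adgre1, which encodes F4/80, averaged 2.89 ± 0.50 in F4/80low TAMs, 5.94 ± 0.26 in F4/80high TAMs and 5.88 ± 0.25 in PECs (SD, n = 3 each). Mertk, a receptor for dying cells, was the macrophage marker above background on 0 of 3 F4/80low TAM arrays. Of the 7 markers, 4 were called lower and 0 higher in F4/80low TAMs, both against PECs (median difference -1.44) and against F4/80high TAMs (median -2.45). Of all genes, 29.2% and 18.6% were called lower in these comparisons, and 22.7% and 14% higher. The summed linear levels of the markers were 495 to 725 in F4/80low TAMs, 614 to 928 in F4/80high TAMs and 893 to 1110 in PECs. The part of this in the values that follow was not tested. Correlations between arrays of all tested genes were 0.964 to 0.979 within F4/80low TAMs, 0.977 to 0.989 within F4/80high TAMs and 0.979 to 0.992 within PECs, above those between groups (0.834 to 0.921).

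F4/80low TAMs carried signal for all 31 tested genes on all 3 of their arrays, whereas 10 reached this in F4/80high TAMs and 9 in PECs. This contrast is largely set by the filter, since 18 of the 31 entered the test through F4/80low TAMs only. Against PECs, where 51.9% of all genes were called in either direction, 27 of the 31 were higher in F4/80low TAMs, against a background of 22.7% of all genes, and Il7r was lower, against 29.2% of all genes. With arrays centred on their medians, 25 were higher and 1 lower, against 11.7% and 41.2% of all genes. Against F4/80high TAMs, 26 of the 31 were higher in F4/80low TAMs, with 32.6% of all genes called, 14% higher and 18.6% lower, and none of the 31 was called lower (24 higher and 3 lower with arrays centred on their medians). The same genes of F4/80high TAMs set against PECs gave 6 higher, where 25% of all genes were, and 6 lower, where 28% of all genes were (53.1% in either direction). With arrays centred on their medians, 3 were higher and 7 lower. The shares for F4/80high TAMs, 19.4% in each direction, are below the background.

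The counts for F4/80low TAMs are partly fixed by the filter. Of the 31 tested genes, 18 entered the test only because F4/80low TAMs were above background, so they had to be brighter there. The remaining 13 also reached background in F4/80high TAMs or PECs. Among them 9 were higher and 1 lower in F4/80low TAMs than in PECs, against 22.7% and 29.2% of all genes. Against F4/80high TAMs, 8 of the 13 were higher in F4/80low TAMs, as were 14% of all genes. Of the 9, the calls of Cd3e, Gzmk and Nkg7 were lost in several alternatives, as was that of Nkg7 among the 8. The median difference of the 31 genes was 4.16 between F4/80low TAMs and PECs, 0.30 between F4/80high TAMs and PECs and 3.99 between F4/80low and F4/80high TAMs, beside medians of -0.09, 0 and -0.08 over all genes. With differences against dim probes set at their bounds, the medians of the 31 were 2.81, 0.30 and 2.42. After normexp background correction with an offset of 50 and quantile normalization, which raises dim values, they were 1.36, 0.04 and 1.59, so the sizes of the differences depend on how dim signal is treated. There, Gzma differed by 3.64 and Cd8a by 0.62 between F4/80low TAMs and PECs, and 26 genes were higher and 1 lower. The 3 comparisons share their arrays and are not independent. In RNA of many cells, more cells of a type and more RNA per cell cannot be told apart.

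Above background on all 3 F4/80low TAM arrays and on none of the other 6 were 11 of the 31 genes, a pattern held by 1.3% of all tested genes: Cd3d, Cd3g, Cd8a, Cd96, Gimap3, Gzma, Il2rb, Klrd1, Skap1, Tcf7 and Thy1. All 11 entered the test through F4/80low TAMs only, so the filter set their direction. At the other end, 6 genes were above background on all 9 arrays, as were 77.5% of all genes: Cd28, Cd3e, Cd4, Il7r, Nkg7 and Prf1. The plot of deviations by array shows these patterns gene by gene.

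**Figure D1:**
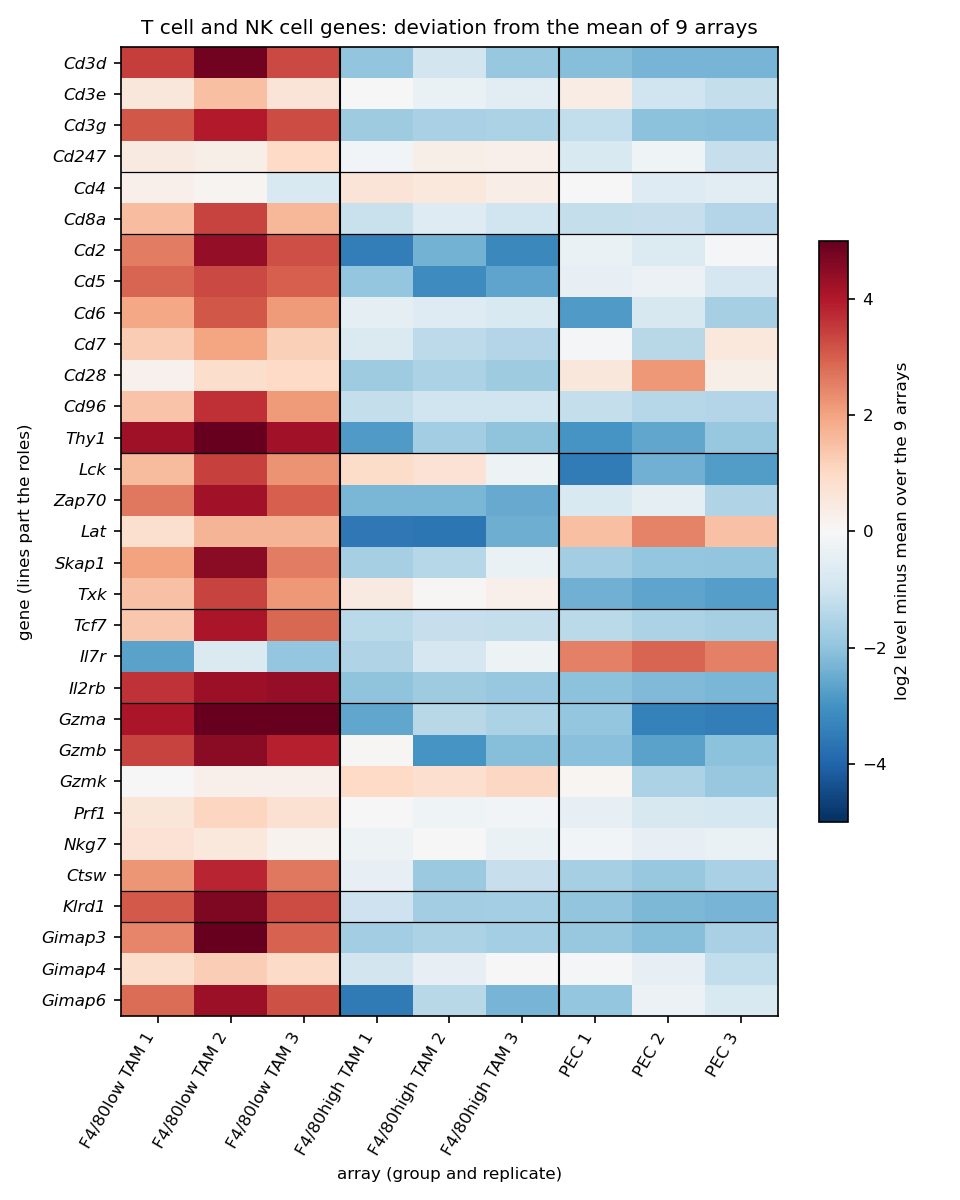
Deviation of each of the 31 tested genes (rows, parted by role) on each of the 9 arrays (columns) from that gene's mean level over the 9 arrays, in log2 units, with colours clipped at 5 units either way. F4/80low TAM arrays were brightest for most rows, while Il7r was brightest on the PEC arrays and Lat was bright in F4/80low TAMs and PECs alike.

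The CD3 chains were bright in F4/80low TAMs, and they did not move as a unit across the groups. Cd3d and Cd3g encode the delta and gamma chains, and lie head to head on chromosome 9, with annotated starts 1355 bases apart. Their promoters, of 300 bases each from RefSeq on GRCm38.p6, are shown because this neighbouring pair was dark outside F4/80low TAMs. The Cd3d window is chr9:44981536-44981835 on the plus strand and the Cd3g window chr9:44980382-44980681 on the minus strand, each running from 250 bases before the start to 50 after it. Capitals mark the E-box CAGGTG or its reverse complement CACCTG.
Cd3d: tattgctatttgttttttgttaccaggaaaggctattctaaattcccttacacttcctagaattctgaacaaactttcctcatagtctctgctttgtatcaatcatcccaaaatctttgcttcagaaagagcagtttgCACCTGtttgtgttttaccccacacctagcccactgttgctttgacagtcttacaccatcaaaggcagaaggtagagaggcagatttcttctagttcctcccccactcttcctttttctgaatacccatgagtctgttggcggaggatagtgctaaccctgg
Cd3g: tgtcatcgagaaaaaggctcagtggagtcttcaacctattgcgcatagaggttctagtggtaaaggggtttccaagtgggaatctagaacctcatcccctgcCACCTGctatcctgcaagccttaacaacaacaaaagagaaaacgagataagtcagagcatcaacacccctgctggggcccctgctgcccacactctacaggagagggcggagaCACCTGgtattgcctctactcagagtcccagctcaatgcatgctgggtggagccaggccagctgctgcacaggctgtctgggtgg
The E-box was present 1 time in the Cd3d window and 2 times in the Cd3g window. Of the 36 genes, 25 had a promoter in the RefSeq table, and 9 of these 25 windows held CAGGTG on either strand, against 20% of the windows of 27025 genes. Without a promoter there were Cd2, Cd4, Cd6, Cd7, Cd8b1, Cd28, Ctsw, Il2rb, Klrd1, Skap1 and Thy1.

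Cd3d had levels of 1.12, 2.46 and 0.96 in F4/80low TAMs, against -4.33, -3.25 and -4.24 in F4/80high TAMs and -4.46, -4.69 and -4.69 in PECs. Its probe, at chr9:44794171-44794402 of mm9 on the plus strand, covers 232 bases of the genome with its 60 bases. All 6 arrays outside F4/80low TAMs were not well above background. Cd3d was at least 16.8-fold higher in F4/80low TAMs than in PECs (adjusted p = 6.72e-06) and at least 14.1-fold higher than in F4/80high TAMs (adjusted p = 3.34e-05). Cd3g had levels of 0.30, 1.18 and 0.48 in F4/80low TAMs, between -4.57 and -4.37 in F4/80high TAMs and between -4.89 and -4.01 in PECs. F4/80low TAMs exceeded PECs at least 9.24-fold and F4/80high TAMs at least 7.76-fold at this probe (adjusted p = 2.56e-06 and 1.00e-05). Both genes entered the test through F4/80low TAMs only, so the direction of these differences was set.

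Cd3e, the epsilon chain, was above background on all 9 arrays. It had levels of 1.91, 2.84 and 1.97 in F4/80low TAMs, 1.32, 1.01 and 0.77 in F4/80high TAMs and 1.73, 0.36 and 0.15 in PECs. PEC replicate 1 came close to the F4/80low TAMs, yet no array overlapped between these groups. F4/80low TAMs were higher than PECs by 1.49 ± 0.42 (log2 difference ± SE, adjusted p = 0.0151). This call was lost without F4/80low replicate 2 (1.19, adjusted p = 0.0543), without PEC replicate 2 (1.30, adjusted p = 0.0552) and without PEC replicate 3 (1.19, adjusted p = 0.0608). On the slide that held PEC replicate 1 and all TAM arrays, the difference was 0.51 (adjusted p = 0.411). Between F4/80low and F4/80high TAMs, Cd3e differed by 1.20 ± 0.42 (adjusted p = 0.0539), and by the same 1.20 with an adjusted p of 0.0332 when TAM arrays of the same replicate number were paired.

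Cd247, the zeta chain, was above background on all 6 TAM arrays and on 1 of 3 PEC arrays. Its levels were -1.28, -1.44 and -0.74 in F4/80low TAMs, -1.86, -1.43 and -1.46 in F4/80high TAMs and -2.48, -1.95 and -2.89 in PECs. The difference between F4/80low TAMs and PECs was 1.29 ± 0.28 (adjusted p = 0.00453), and the TAM subsets overlapped. F4/80high TAMs exceeded PECs by 0.86 ± 0.28 (adjusted p = 0.0279), a call that was lost without F4/80high replicate 2 (0.78) or 3 (0.80), or PEC replicate 1 (0.84) or 3 (0.63). Its other probe was above background on 0 of 9 arrays.

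**Figure D2:**
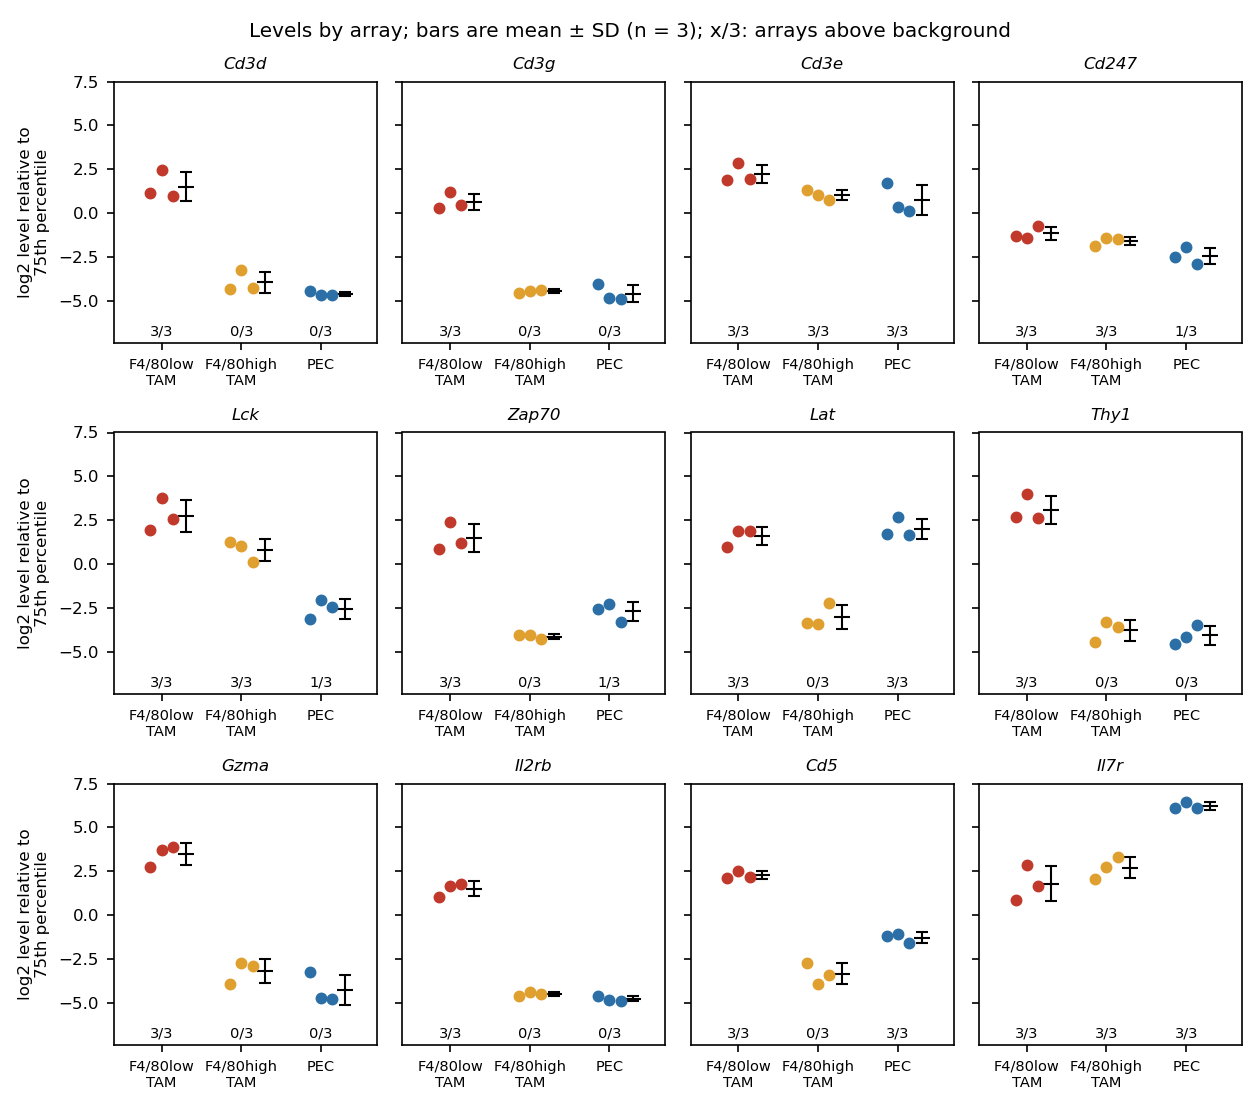
Levels of 12 genes (log2, relative to the array's 75th percentile) by array in F4/80low TAMs, F4/80high TAMs and PECs; points run from replicate 1 to 3, bars are the mean ± SD (n = 3), and the fraction at the foot counts arrays above background. Cd3d, Cd3g, Thy1, Gzma and Il2rb reached background on 3 of 3 F4/80low arrays and on 0 of 6 others, whereas Lat was dim only in F4/80high TAMs and Il7r was highest in PECs.

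Among the coreceptors, Cd8a was found in F4/80low TAMs and Cd4 in every group. Cd8a entered the test through F4/80low TAMs only, so its direction was set. CD8 alpha binds MHC class I on the side of the T cell. Cd8a had levels of -1.77, 0.09 and -1.62 in F4/80low TAMs, between -4.40 and -3.95 in F4/80high TAMs and between -4.77 and -4.44 in PECs. It was at least 2.74-fold higher in F4/80low TAMs than in PECs (adjusted p = 0.00021) and at least 2.30-fold higher than in F4/80high TAMs (adjusted p = 0.000737). Replicate 2 carried much of that: without it the bounds were 1.81 and 1.52. A second Cd8a probe was above background on 1 of 3 F4/80low TAM arrays and on no other array. Cd8b1, which encodes the beta chain, had levels of -1.97, 0.38 and -1.09 in F4/80low TAMs, was above background on 2 of these 3 arrays and on no other array, and was not tested.

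Cd4, the MHC class II coreceptor, also made by some mononuclear phagocytes, ran in another order. Its levels were 3.21, 3.10 and 2.20 in F4/80low TAMs, 3.60, 3.49 and 3.29 in F4/80high TAMs and 2.95, 2.32 and 2.37 in PECs. F4/80high TAMs were thus above both other groups on every array. F4/80high TAMs exceeded PECs by 0.91 ± 0.29 (adjusted p = 0.0255), and F4/80low TAMs were not separated from PECs (0.29 ± 0.29, adjusted p = 0.430) or from F4/80high TAMs (-0.62 ± 0.29, adjusted p = 0.135). The call of F4/80high TAMs against PECs was lost without F4/80high replicate 1 (0.84) or 2 (0.90), or PEC replicate 2 (0.80) or 3 (0.82). The difference was 0.51 with the slide as a block (adjusted p = 0.337) or on the slide with PEC replicate 1 (adjusted p = 0.391), and 0.75 with arrays centred on their medians (adjusted p = 0.0588). The other Cd4 probe was above background on 0 of 9 arrays, so the level in all groups rests on 1 of 2 probes.

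Of the 8 surface molecules of adhesion and costimulation, 7 were tested. All 7 were higher in F4/80low than in F4/80high TAMs, and 6 were higher in F4/80low TAMs than in PECs, where 14% and 22.7% of all genes were. Cd7, Cd96 and Thy1 entered the test through F4/80low TAMs only. Thy1, the GPI-anchored protein also called CD90, had levels of 2.67, 4.02 and 2.62 in F4/80low TAMs, -4.42, -3.30 and -3.59 in F4/80high TAMs and -4.54, -4.16 and -3.45 in PECs. It was at least 50.5-fold higher in F4/80low TAMs than in PECs (adjusted p = 4.57e-06) and at least 42.5-fold higher than in F4/80high TAMs (adjusted p = 1.65e-05). Cd96, a receptor of T and NK cells for nectin-like ligands, had levels of -1.99, 0.24 and -1.28 in F4/80low TAMs and was dim elsewhere, with bounds of 2.91 against PECs and 2.45 against F4/80high TAMs (adjusted p = 0.00019 and 0.000592). Without F4/80low replicate 2 these bounds were 1.89 and 1.59.

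Cd2, Cd5 and Cd6 also had signal outside F4/80low TAMs. Cd2, the receptor for CD48 in mice, had levels of 1.48, 3.31 and 2.14 in F4/80low TAMs, -4.52, -3.45 and -4.28 in F4/80high TAMs and -1.39, -1.76 and -1.18 in PECs. Every PEC array was above background, and no F4/80high TAM array was. F4/80low TAMs exceeded PECs by 3.75 ± 0.45 (adjusted p = 0.000166) and F4/80high TAMs at least 24.5-fold (adjusted p = 2.38e-05). F4/80high TAMs were at least 1.82-fold lower than PECs (adjusted p = 0.00102), a call lost after normexp (-0.51, adjusted p = 0.257) and in the authors' deposited table (-0.55, adjusted p = 0.197). The second Cd2 probe was above background in F4/80low TAMs only, where it was at least 4.68-fold higher than in PECs. With F4/80high TAMs and PECs both dim, it could not separate them (-0.22 ± 0.42, adjusted p = 0.681).

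Cd5, a scavenger receptor family protein that dampens antigen receptor signals and is also found on some B cells, had levels of 2.14, 2.54 and 2.20 in F4/80low TAMs, -2.72, -3.91 and -3.41 in F4/80high TAMs and -1.17, -1.06 and -1.61 in PECs. The 3 groups did not overlap. Cd5 was higher in F4/80low TAMs than in PECs by 3.57 ± 0.30 (adjusted p = 2.10e-05) and than in F4/80high TAMs at least 24.2-fold (adjusted p = 6.60e-06), and F4/80high TAMs were at least 2.03-fold lower than PECs (adjusted p = 0.000386). Cd6, the neighbour of Cd5 on chromosome 19 and a related receptor, had levels of 1.01, 2.20 and 1.21 in F4/80low TAMs, -1.40, -1.57 and -1.70 in F4/80high TAMs and -3.74, -1.72 and -2.60 in PECs. Unlike Cd5, it was above background on all 3 F4/80high TAM arrays. At this probe, the excess of F4/80low TAMs was 4.16 ± 0.48 over PECs (adjusted p = 0.00014) and, over F4/80high TAMs, 3.03 ± 0.48 (adjusted p = 0.00143). Of the PEC arrays, 1 of 3 was above background for Cd6, and the excess over PECs was 1.84 after normexp (limma adjusted p = 0.000354). A second Cd6 probe was above background on no array of any group.

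Cd7 and Cd28 differed less between F4/80low TAMs and PECs. Cd7, an immunoglobulin superfamily protein of T and NK cells, had levels of -0.55, 0.16 and -0.62 in F4/80low TAMs, -2.54, -3.13 and -3.29 in F4/80high TAMs and -1.85, -3.18 and -1.28 in PECs. It was higher by 1.77 ± 0.45 in F4/80low TAMs than in PECs (adjusted p = 0.0101, or 0.125 with the slide as a block) and at least 3.91-fold higher than in F4/80high TAMs (adjusted p = 0.00211). Cd28, the main costimulatory receptor of T cells, had levels of -0.02, 0.66 and 0.77 in F4/80low TAMs, between -2.02 and -1.82 in F4/80high TAMs and 0.33, 1.94 and 0.05 in PECs. Here F4/80low TAMs and PECs overlapped (-0.30 ± 0.44, adjusted p = 0.590), and F4/80high TAMs stood below both. F4/80low TAMs exceeded F4/80high TAMs by 2.42 ± 0.44 (adjusted p = 0.00302), and F4/80high TAMs were lower than PECs by 2.72 ± 0.44 on the log2 scale (log2 difference -2.72, adjusted p = 0.000801). Cd27, a costimulatory receptor of the TNF receptor superfamily, was above background on 1 of 3 F4/80low TAM arrays and on no other, and was not tested.

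All 5 signalling proteins of the T cell receptor were higher in F4/80low than in F4/80high TAMs, and 4 of them were higher in F4/80low TAMs than in PECs, where 14% and 22.7% of all genes were. Zap70, Skap1 and Txk entered the test through F4/80low TAMs only, so their direction was set. Lck, the kinase bound to the coreceptors, had levels of 1.94, 3.75 and 2.60 in F4/80low TAMs, 1.27, 1.05 and 0.10 in F4/80high TAMs and -3.15, -2.05 and -2.44 in PECs. The groups descended in this order without overlap. For Lck, F4/80low TAMs exceeded PECs by 5.30 ± 0.49 (adjusted p = 3.74e-05) and F4/80high TAMs by 1.95 ± 0.49 (adjusted p = 0.014). F4/80high TAMs exceeded PECs by 3.35 ± 0.49 (adjusted p = 0.000429). Lck was above background on 1 of 3 PEC arrays, so the sizes against PECs depend on dim signal. After normexp they were 2.97 for F4/80low TAMs and 1.29 for F4/80high TAMs (limma adjusted p = 0.000278 and 0.0179). On F4/80high TAM arrays, Lck was above background on 3 of 3, and the CD3 delta and gamma chains on 0 of 3.

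Txk, a TEC family kinase of T and NK cells, had the same order. Its levels were -0.61, 1.31 and 0.08 in F4/80low TAMs, -1.61, -2.01 and -1.81 in F4/80high TAMs and -4.49, -4.72 and -4.81 in PECs. In F4/80low TAMs, Txk exceeded PECs at least 7.01-fold (adjusted p = 1.99e-05) and F4/80high TAMs by 2.07 ± 0.41 (adjusted p = 0.00429). Between F4/80high TAMs and PECs the log2 difference was 2.86 ± 0.41 (adjusted p = 0.000355), which was 0.35 (adjusted p = 0.287) after normexp background correction with quantile normalization.

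Zap70, the kinase that binds the phosphorylated CD3 and zeta chains, had levels of 0.88, 2.42 and 1.21 in F4/80low TAMs, -4.04, -4.05 and -4.28 in F4/80high TAMs and -2.55, -2.26 and -3.28 in PECs. At this probe F4/80low TAMs exceeded PECs by 4.20 ± 0.40 (adjusted p = 4.13e-05) and F4/80high TAMs at least 14-fold (adjusted p = 2.38e-05). Here 1 of 3 PEC arrays was above background, and the difference of F4/80low TAMs from PECs was 1.83 after normexp. F4/80high TAMs were called lower than PECs there (-1.42 ± 0.40, adjusted p = 0.0138). The second Zap70 probe was higher in F4/80low TAMs than in PECs at least 6.90-fold. Between F4/80high TAMs and PECs it gave 1.57 ± 0.69 (adjusted p = 0.0841). Its F4/80high levels were -4.05, -3.94 and -1.06, with 1 of 3 arrays above background, against 0 of 3 in PECs. That value thus rests on F4/80high replicate 3, and this probe could not show F4/80high TAMs below PECs. The call of F4/80high TAMs below PECs at the first probe was lost without PEC replicate 2 (-1.21, adjusted p = 0.0524), with the slide as a block (-1.57, adjusted p = 0.0736), on the slide with PEC replicate 1 (adjusted p = 0.071) and after normexp (-0.17, adjusted p = 0.607).

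Lat, the membrane adaptor phosphorylated by ZAP70, was bright in F4/80low TAMs and PECs. Its levels were 1.00, 1.91 and 1.89 in F4/80low TAMs, -3.38, -3.41 and -2.24 in F4/80high TAMs and 1.70, 2.66 and 1.66 in PECs. F4/80low TAMs overlapped with PECs (-0.41 ± 0.41, adjusted p = 0.431) and exceeded F4/80high TAMs at least 15-fold (adjusted p = 8.19e-05). F4/80high TAMs were at least 19.8-fold lower than PECs (adjusted p = 1.35e-05). Skap1, an adaptor that links the receptor to integrins, had levels of -0.97, 1.51 and -0.43 in F4/80low TAMs and was not well above background on the other 6 arrays. It was at least 6.03-fold higher in F4/80low TAMs than in PECs and at least 5.07-fold higher than in F4/80high TAMs (adjusted p = 0.000163 and 0.000787), or 3.62-fold and 3.04-fold without F4/80low replicate 2.

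Of the transcription factor and cytokine receptors, Il2rb and Tcf7 were bright in F4/80low TAMs alone, and Il7r was brightest in PECs. The direction of Il2rb and Tcf7 was set, since they entered the test through F4/80low TAMs only. Il2rb, the chain shared by the IL-2 and IL-15 receptors, had levels of 1.01, 1.68 and 1.80 in F4/80low TAMs, between -4.61 and -4.36 in F4/80high TAMs and between -4.89 and -4.62 in PECs. Il2rb was at least 16.6-fold higher in F4/80low TAMs than in PECs (adjusted p = 2.10e-07) and at least 13.9-fold higher than in F4/80high TAMs (adjusted p = 1.85e-06). Tcf7, the transcription factor TCF1 of early and memory-like T cells, had levels of -1.92, 0.83 and -0.40 in F4/80low TAMs, with bounds of 4.15 against PECs and 3.49 against F4/80high TAMs (adjusted p = 0.00024 and 0.000698). These were 2.62 and 2.20 without F4/80low replicate 2, and 6.80 and 5.71 without F4/80low replicate 1. A second Tcf7 probe was above background on 0 of 9 arrays.

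Il7r, the IL-7 receptor alpha chain of lymphocytes, which also pairs in the receptor for TSLP, had levels of 0.89, 2.84 and 1.65 in F4/80low TAMs, 2.08, 2.72 and 3.31 in F4/80high TAMs and 6.10, 6.47 and 6.08 in PECs. Every PEC array stood above every TAM array. F4/80low TAMs were lower than PECs by 4.42 on the log2 scale (-4.42 ± 0.47, adjusted p = 8.39e-05), as were F4/80high TAMs by 3.52 (-3.52 ± 0.47, adjusted p = 0.000241). The TAM subsets overlapped (-0.91 ± 0.47, adjusted p = 0.173), and without F4/80low replicate 2 their difference was -1.43 (adjusted p = 0.023).

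All 6 cytotoxic granule genes were higher in F4/80low TAMs than in PECs, and 5 were higher in F4/80low than in F4/80high TAMs, where 22.7% and 14% of all genes were. Gzma, Gzmb and Ctsw entered the test through F4/80low TAMs only, and the calls of Gzmk and Nkg7 did not hold in several alternatives. The promoters of Gzma and Gzmb, which had the largest bounds against PECs among the granzymes of the set, are shown, from RefSeq on GRCm38.p6. The Gzma window is chr13:113100932-113101231 and the Gzmb window chr14:56262285-56262584, both on the minus strand. Capitals mark TGTGGT or its reverse complement ACCACA, the core bound by RUNX factors.
Gzma: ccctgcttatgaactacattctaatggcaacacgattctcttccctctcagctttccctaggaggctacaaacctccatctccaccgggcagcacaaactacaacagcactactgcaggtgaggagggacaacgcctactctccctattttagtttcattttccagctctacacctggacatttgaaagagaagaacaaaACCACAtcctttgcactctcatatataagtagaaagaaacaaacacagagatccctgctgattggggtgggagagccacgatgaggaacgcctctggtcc
Gzmb: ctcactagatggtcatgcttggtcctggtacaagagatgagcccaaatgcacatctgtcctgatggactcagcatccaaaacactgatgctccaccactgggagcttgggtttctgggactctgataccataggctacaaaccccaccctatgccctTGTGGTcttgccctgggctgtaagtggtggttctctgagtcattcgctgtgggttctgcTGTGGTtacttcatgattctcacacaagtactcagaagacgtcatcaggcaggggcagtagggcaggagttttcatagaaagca
The core was present 1 time in the Gzma window and 2 times in the Gzmb window. It was present in 12 of the 25 promoters of the gene set and in 16.9% of all 27025. Searched in the same way, the ETS core GGAAGT was in 11 of 25 and 24.1% of all, and the TCF/LEF core CTTTGA in 8 of 25 and 16.2% of all. These are matches of letters in the windows, on either strand and with no test.

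Gzma, the tryptase-like granzyme A, had levels of 2.74, 3.73 and 3.90 in F4/80low TAMs, between -3.94 and -2.71 in F4/80high TAMs and between -4.79 and -3.25 in PECs. Gzma was at least 64.5-fold higher in F4/80low TAMs than in PECs (adjusted p = 5.23e-06) and at least 54.2-fold higher than in F4/80high TAMs (adjusted p = 3.11e-05), the largest bound of the set against either. Gzmb, the granzyme that cleaves after aspartate, had levels of 2.38, 3.49 and 2.89 in F4/80low TAMs, -0.94, -3.96 and -3.13 in F4/80high TAMs and -3.11, -3.68 and -3.05 in PECs. F4/80high replicate 1 was the only array outside F4/80low TAMs on which Gzmb was above background. Gzmb was at least 44.4-fold higher in F4/80low TAMs than in PECs (adjusted p = 8.58e-05) and 5.60 ± 0.66 higher on the log2 scale than in F4/80high TAMs (adjusted p = 0.000321).

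Gzmk, granzyme K, had another order. Its levels were -1.91, -1.69 and -1.69 in F4/80low TAMs, -0.96, -1.11 and -0.90 in F4/80high TAMs and -1.82, -3.50 and -3.85 in PECs. F4/80high TAMs were highest on every array, and PEC replicate 1 lay within the range of F4/80low TAMs. F4/80high TAMs exceeded PECs by 2.07 ± 0.44 (adjusted p = 0.00365) and F4/80low TAMs did so by 1.30 ± 0.44 (adjusted p = 0.0334). The F4/80low call was lost without F4/80low replicate 1 (1.37), 2 (1.26) or 3 (1.26), or PEC replicate 2 (1.07) or 3 (0.90), and the difference on the slide with PEC replicate 1 was 0.06 (adjusted p = 0.875). Between F4/80low and F4/80high TAMs it was -0.77 ± 0.44 (adjusted p = 0.218), with an adjusted p of 0.0297 when TAM arrays of the same replicate number were paired.

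Prf1, the pore-forming perforin, was above background on all 9 arrays, with levels of 1.07, 1.54 and 1.24 in F4/80low TAMs, 0.49, 0.27 and 0.35 in F4/80high TAMs and 0.07, -0.34 and -0.40 in PECs. The groups did not overlap, but lay within about 2 units of each other, unlike the granzymes A and B. F4/80low TAMs exceeded PECs by 1.51 ± 0.19 (adjusted p = 0.000256) and F4/80high TAMs by 0.91 ± 0.19 (adjusted p = 0.00637). F4/80high TAMs exceeded PECs by 0.59 ± 0.19 (adjusted p = 0.0279), a call lost on leaving out any of the F4/80high replicates (0.53 to 0.64) or PEC replicate 2 (0.54) or 3 (0.50). That difference was 0.30 with the slide as a block (adjusted p = 0.364) or on the slide with PEC replicate 1 (adjusted p = 0.427), and 0.44 with arrays centred on their medians (adjusted p = 0.169). With arrays centred on their medians, the subsets differed by 0.60 (adjusted p = 0.0808). Ctsw, the lymphocyte cathepsin W, had levels of 0.53, 2.15 and 0.97 in F4/80low TAMs, -2.07, -3.52 and -2.81 in F4/80high TAMs and -3.33, -3.57 and -3.27 in PECs. It was at least 13.6-fold higher in F4/80low TAMs than in PECs (adjusted p = 4.92e-05) and higher by 4.01 ± 0.45 than in F4/80high TAMs (adjusted p = 0.000238). Of the F4/80high TAM arrays, 1 of 3 was above background for Ctsw, and the difference from them was 1.75 after normexp (limma adjusted p = 0.00159).

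Nkg7, a granule membrane protein of NK cells and cytotoxic T cells, gave different sizes at its 2 probes, both on the plus strand of chromosome 7. The first 30 of the 60 bases of each probe are shown, since the reading of this gene turns on them.
Nkg7 probe at chr7:50693530-50693589 of mm9: aaggaatgcagaattctgtctctgtccctc
Nkg7 probe at chr7:50693148-50693207 of mm9: tctccatattagtggctatggcagtgtaca
The first of these, the brighter and the probe used, was above background on all 9 arrays, with levels of 4.05, 3.83 and 3.49 in F4/80low TAMs, 3.08, 3.35 and 2.99 in F4/80high TAMs and 3.18, 2.91 and 3.00 in PECs. At this probe F4/80low TAMs exceeded PECs by 0.76 ± 0.19 (adjusted p = 0.0099) and F4/80high TAMs by 0.65 ± 0.19 (adjusted p = 0.0301, or 0.0583 when TAM arrays of the same replicate number were paired). The call against F4/80high TAMs was lost without F4/80low replicate 1 (0.52) or 2 (0.63), or F4/80high replicate 1 (0.62) or 3 (0.57), and the call against PECs with arrays centred on their medians (0.29, adjusted p = 0.364), with the slide as a block (0.61, adjusted p = 0.127) and on the slide with PEC replicate 1 (0.61, adjusted p = 0.177). The other probe had levels of 2.14, 1.77 and 0.62 in F4/80low TAMs, between -4.47 and -4.30 in F4/80high TAMs and between -4.89 and -4.68 in PECs. There F4/80low TAMs were at least 16.7-fold higher than PECs (adjusted p = 1.90e-06) and at least 14-fold higher than F4/80high TAMs (adjusted p = 1.00e-05). The direction was shared by both probes, and the size was not.

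**Figure D3:**
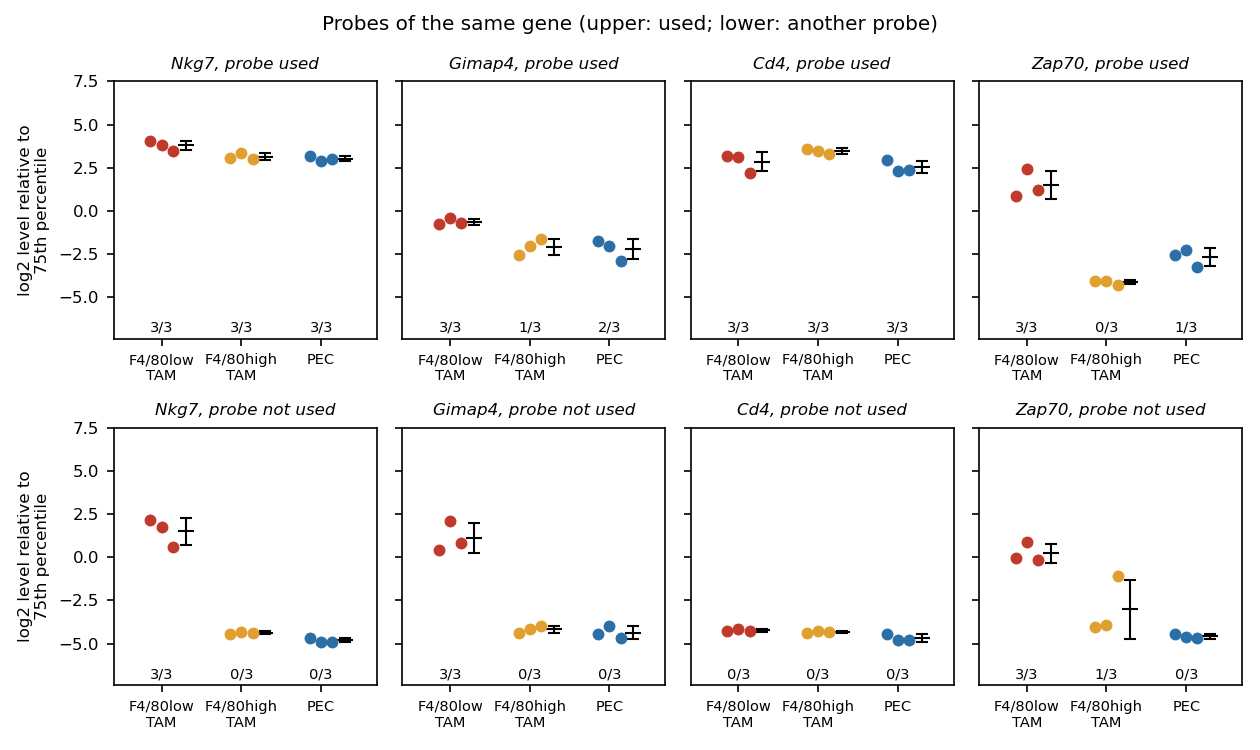
Levels by array (log2, relative to the array's 75th percentile; points run from replicate 1 to 3, bars are the mean ± SD, n = 3, and the fraction counts arrays above background) at the probe used (upper row) and another probe (lower row) of Nkg7, Gimap4, Cd4 and Zap70. The lower probes of Nkg7 and Gimap4 were above background in F4/80low TAMs only, and the lower Cd4 probe on 0 of 9 arrays.

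Of the 4 NK cell receptor genes, Klrd1 alone was tested. It entered the test through F4/80low TAMs only, so its direction was set. Klrd1, the CD94 chain that pairs with NKG2 proteins, had levels of 0.60, 2.22 and 0.81 in F4/80low TAMs, -3.50, -4.21 and -4.17 in F4/80high TAMs and -4.42, -4.72 and -4.78 in PECs. Klrd1 was at least 13.6-fold higher in F4/80low TAMs than in PECs (adjusted p = 7.06e-06) and at least 11.4-fold higher than in F4/80high TAMs (adjusted p = 3.67e-05). Klrb1c, which encodes the antigen NK1.1 of C57BL/6 mice, was above background at 1 of its 2 probes on 2 of 3 F4/80low TAM arrays (levels -3.13, -1.65 and -1.26) and on no other array. Klrk1, which encodes NKG2D, and Ncr1, which encodes the NK cell receptor NKp46, were above background on 0 of 9 arrays.

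The 3 GIMAP genes, which code for GTPases of lymphocyte survival and lie together on chromosome 6, were all higher in F4/80low TAMs than in either other group, a direction set by the filter, since all 3 entered the test through F4/80low TAMs only. Gimap3 had levels of -0.12, 2.76 and 0.39 in F4/80low TAMs, between -4.27 and -4.13 in F4/80high TAMs and between -4.67 and -4.16 in PECs. Gimap3 was at least 11.8-fold higher in F4/80low TAMs than in PECs (adjusted p = 0.000118) and at least 9.92-fold higher than in F4/80high TAMs (adjusted p = 0.000302), or 6.44-fold and 5.41-fold without F4/80low replicate 2. Gimap6 had levels of 1.74, 3.25 and 2.15 in F4/80low TAMs, -4.56, -2.43 and -3.38 in F4/80high TAMs and -2.96, -1.34 and -1.81 in PECs. It was above background on 2 of 3 PEC arrays and on 0 of 3 F4/80high TAM arrays. Gimap6 in F4/80low TAMs exceeded PECs by 4.42 ± 0.61 (adjusted p = 0.000386) and F4/80high TAMs at least 25.7-fold (adjusted p = 0.000178).

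Gimap4 had 3 probes on the plus strand, of which the brightest was used. The first 30 bases of each are shown, since they differed in which arrays they lit.
Gimap4 probe at chr6:48641312-48641371 of mm9: gactagaccttatttctattttctgcattt
Gimap4 probe at chr6:48641817-48641876 of mm9: agatctcacaagtcaaataatccaggttga
Gimap4 probe at chr6:48640752-48640811 of mm9: attcatgattctcttgctcaccaggaagga
At the first, Gimap4 had levels of -0.76, -0.43 and -0.68 in F4/80low TAMs, -2.57, -2.06 and -1.62 in F4/80high TAMs and -1.75, -2.04 and -2.89 in PECs, and F4/80low TAMs exceeded PECs by 1.60 ± 0.33 (adjusted p = 0.00325) and F4/80high TAMs by 1.46 ± 0.33 (adjusted p = 0.00802). On the slide with PEC replicate 1, the difference from PECs was 1.12 (adjusted p = 0.0697). At the second it was above background in F4/80low TAMs only and at least 12.8-fold higher than in PECs and 10.8-fold higher than in F4/80high TAMs (adjusted p = 7.90e-06 and 2.80e-05). The third was above background on 2 of 3 F4/80low TAM arrays and on no other array.

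Read by group, F4/80high TAMs held a subset of these genes. Above background on all 3 of their arrays were the 6 genes seen on all 9 arrays, and Cd247, Cd6, Gzmk and Lck. Of those, Cd247, Cd4, Gzmk, Lck and Prf1 were higher than in PECs, as was Txk. Lower than in PECs were Cd5, Cd28, Lat, Il7r and, at 1 of 2 probes each, Cd2 and Zap70. In some alternatives, the calls of Cd247, Cd4, Prf1, Txk, Cd2 and Zap70 were lost. Arrays of F4/80high TAMs and PECs did not overlap for 20 of the 31 genes, against 65.2% of all genes.

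PECs were not empty of these genes either. Above background on all 3 PEC arrays were the 6 genes seen on all 9 arrays, and Cd2, Cd5 and Lat. Arrays of F4/80low TAMs and PECs did not overlap for 27 of 31 genes, against 59.3% of all genes, and arrays of F4/80low and F4/80high TAMs did not overlap for 29 of 31, against 46.7% of all genes. Much of this separation was set by the filter, since 18 of the 31 entered the test through F4/80low TAMs only. The 7 B cell markers were above background on all 3 arrays of no group, with summed linear levels of 0.812 to 1.91 in F4/80low TAMs, 0.375 to 0.583 in F4/80high TAMs and 0.468 to 1.17 in PECs, where 1 is the 75th percentile.

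Within F4/80low TAMs most of the genes moved together between replicates. Replicate 2 was the highest of the 3 arrays for 25 of the 31 genes, 80.6%, against 30.3% of all tested genes and 34.8% of all genes higher in F4/80low TAMs than in PECs. Set against each gene's mean over the 3 arrays, the median deviation of the 31 genes was -0.54 on replicate 1, 0.73 on replicate 2 and -0.18 on replicate 3, and that of all genes was between -0.02 and 0.01. The exceptions were Cd247, Cd28, Gzma and Il2rb, highest on replicate 3, and Cd4 and Nkg7, highest on replicate 1. Gimap3 had the widest spread, from -0.12 on replicate 1 to 2.76 on replicate 2, and Gzmk lay between -1.91 and -1.69.

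Neutrophil markers were also higher in F4/80low TAMs, 8 of 9 called against PECs and 8 of 9 against F4/80high TAMs, where 22.7% and 14% of all genes were. All 9 neutrophil markers on the array were above background on all 3 F4/80low TAM arrays, as were 5 in F4/80high TAMs and 4 in PECs. For those that entered the test through F4/80low TAMs only, the direction was set. Their summed linear levels, over all 9, were 6590, 2280 and 1900 in F4/80low TAMs, 222 to 324 in F4/80high TAMs and 119 to 154 in PECs. Of these 9, 8 were highest on F4/80low replicate 1, the array on which the T cell and NK cell genes had their lowest median. Of the 5 tested dendritic cell markers, 4 were called higher and 0 lower than in PECs in each TAM subset. Of all genes, 22.7% were higher than in PECs in F4/80low TAMs and 25% in F4/80high TAMs. On all 3 PEC arrays, 1 marker of the list was above background, so the filter set much of this. Between the subsets, 1 was called higher and 1 lower in F4/80low TAMs, where 14% and 18.6% of all genes were. The dendritic cell markers had sums of 259 to 304 in F4/80low TAMs, 290 to 318 in F4/80high TAMs and 127 to 191 in PECs. Most of these sums came from Siglech, with mean levels of 7.82, 8.03 and 7.28 in these groups. The part of these cells in the values above was not tested.

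**Figure D4:**
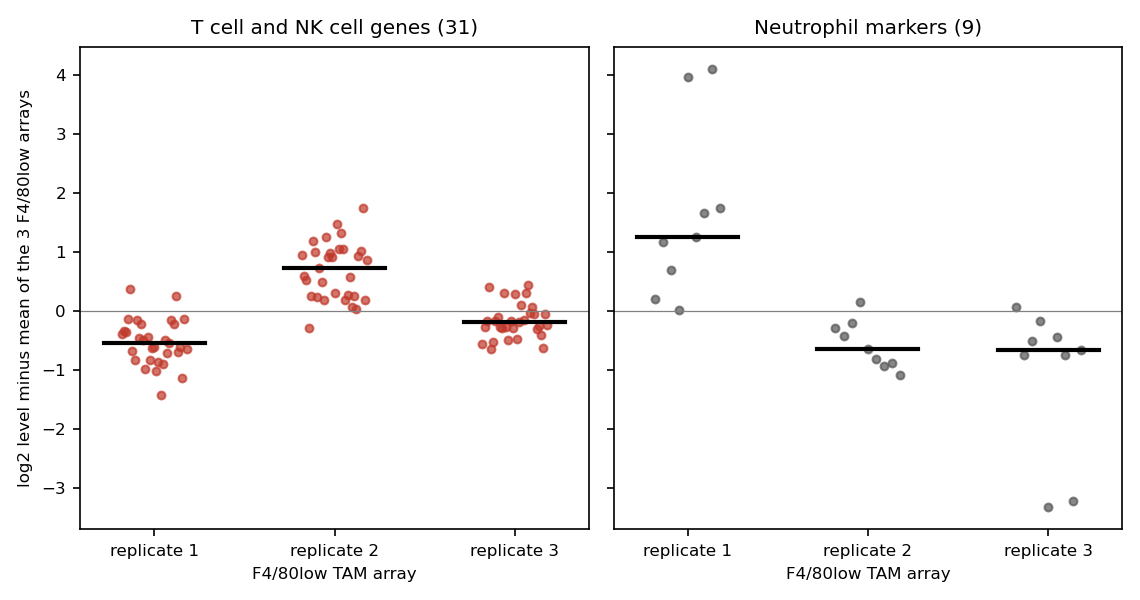
Deviation of each gene from its mean over the 3 F4/80low TAM arrays, in log2 units, for the 31 T cell and NK cell genes (left) and 9 neutrophil markers (right), with black bars at the medians. The left medians are -0.54, 0.73 and -0.18 on replicates 1, 2 and 3, and the right medians 1.25, -0.65 and -0.67.

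A companion list of 61 other genes of T and NK cells was set beside these. Of 44 tested, 34 were higher and 5 lower in F4/80low TAMs than in PECs, 11 higher and 4 lower in F4/80high TAMs than in PECs, and 26 higher and 7 lower in F4/80low than in F4/80high TAMs, with median differences of 3.79, 0.54 and 2.51. Of all genes, 22.7%, 25% and 14% were higher in these comparisons, and 29.2%, 28% and 18.6% lower. On all 3 arrays, 43 were above background in F4/80low TAMs, 19 in F4/80high TAMs and 15 in PECs. F4/80low replicate 2 was the highest of its group for 35 of the 44.

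Among the companion genes with the largest called differences between F4/80low TAMs and PECs were Gzmc, Ccl5, Gzme, Ccr7 and Xcl1. Gzmc, a granzyme gene of the cluster that holds Gzmb, had levels of 5.11, 5.48 and 4.37 in F4/80low TAMs, -3.54, -4.32 and -0.24 in F4/80high TAMs and -3.68, -4.40 and -4.74 in PECs, and was at least 186-fold higher in F4/80low TAMs than in PECs (adjusted p = 4.66e-05). Gzme was at least 42.1-fold higher in F4/80low TAMs than in PECs (adjusted p = 3.14e-05). Xcl1, a chemokine of T and NK cells that attracts cross-presenting dendritic cells, had levels of 2.62, 3.99 and 2.92 in F4/80low TAMs, between -4.48 and -4.26 in F4/80high TAMs and -1.87, -4.84 and -4.18 in PECs.

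Ccl5 and Ccr7 did not share that order. Ccl5, a chemokine of T cells, NK cells and macrophages, had levels of 7.61, 9.22 and 8.47 in F4/80low TAMs, 10.94, 11.08 and 10.92 in F4/80high TAMs and -1.43, 1.04 and 1.59 in PECs. It was higher in F4/80low TAMs than in PECs by 8.03 ± 0.70 (adjusted p = 2.70e-05) and lower than in F4/80high TAMs (-2.55 ± 0.70, adjusted p = 0.0208). Ccr7, a homing receptor of lymphocytes and migrating dendritic cells, averaged 5.43 ± 0.68 in F4/80low TAMs, 5.2 ± 0.17 in F4/80high TAMs and -1.81 ± 1.71 in PECs (SD, n = 3 each). Its difference between the TAM subsets was 0.23 ± 0.72 (adjusted p = 0.836).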

How the data were processed

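RNA of 9 samples was hybridised to 1-colour (Cy3) Agilent arrays. Per the file headers, Agilent Feature Extraction 10.5.1.1 made the deposited processed intensity values by background subtraction and spatial detrending within each array, with floor values for dim spots, and placed probes on mm9. The flags for signal above background and for outlier spots are as deposited. The authors' deposited table of log2 values has 9703 rows, names 21 of the 36 genes, and served as an alternative. Its scaling is not given in the sources used here; each of its columns correlated with that array's log2 intensity at 0.96 to 0.978, and column medians were 8.26 to 8.35.

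Levels were log2(processed intensity) minus the 75th percentile of each array over non-control spots. Outlier spots were dropped and spots of a probe averaged. A probe entered if its signal exceeded background throughout some group (3 of 3 arrays), which kept 21197 probes, and the brightest stood for its gene. Members were found by the gene name in the scanner files. Other genes were named through RefSeq accessions (26413 probes) or by the file's name (29268 probes). limma 3.58.1 in R 4.3.3 fitted 3 groups over 9 arrays, two-sided, and adjusted p within each of 3 comparisons by Benjamini-Hochberg. The fit was tested on simulated data. Precision is limited by having 3 arrays a group; log2 differences had a median SE of 0.236.

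The members and lists were chosen with earlier results of these data known. Every member is accounted for. Of the companion list, the 6 with the largest called differences between F4/80low TAMs and PECs were to be named, of which 1 is not reported here, and at most 2 of each marker list. The marker lists were for macrophages, B cells, neutrophils, dendritic cells, mast cells and basophils, fibroblasts and tumour stroma, and endothelial cells; 1 gene of the mast cell and basophil list, 4 of the stromal list and 3 of the endothelial list were tested. All 6 TAM arrays and PEC replicate 1 lay on 1 slide, and PEC replicates 2 and 3 on another, so the slide was tried as a block. After group means were removed, F4/80low and F4/80high TAM arrays of the same replicate number correlated at 0.233, 0.171 and 0.134, and those of different numbers at 0.0226 at most. Removing group means makes the arrays of a group cancel out, so these correlations are not independent of each other. The main fit did not pair the numbers, and pairing was tried in alternatives. Between PECs and TAMs of the same number, the correlations were 0.0912, -0.0326 and 0.0216 for F4/80low TAMs, and 0.0381, -0.096 and 0.00688 for F4/80high TAMs. Alternatives were another background correction and normalization, centring, filter, probe rule, block, set of arrays and the deposited table.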

Additional observations from a re-analysis of the deposited data

Results flagged for a closer look

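Cd2, Cd5 and Zap70 were called in opposite directions against PECs in the TAM subsets: higher in F4/80low TAMs than in PECs and lower in F4/80high TAMs than in PECs. The difference between these differences, which equals that between the subsets, was 6.39 for Cd2, 5.64 for Cd5 and 5.63 for Zap70 on the log2 scale (limma adjusted p = 2.38e-05, 6.60e-06 and 2.38e-05). These are fitted values: the F4/80high arrays were not well above background for these genes, and the bounds are at least 24.5-fold, 24.2-fold and 14-fold higher in F4/80low than in F4/80high TAMs. The second probes of Cd2 and Zap70 (-0.22 and 1.57) were above background on 0 of 3 PEC arrays, so they could not show F4/80high TAMs below PECs. For Cd2 and Zap70, the lower value in F4/80high TAMs was not called after normexp (-0.51 and -0.17, adjusted p = 0.257 and 0.607). Nor was it called in the authors' deposited table (-0.55 and -0.18, adjusted p = 0.197 and 0.572). For Zap70 it was also not called with the slide as a block (adjusted p = 0.0736) or on the slide with PEC replicate 1 (adjusted p = 0.071), while for Cd5 it was called after normexp (-0.40, adjusted p = 0.0351).

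Signal also appeared for genes that no comparison used, on TAM arrays above background. The highest level was 0.38 for Cd8b1 and -1.31 for Cd27, both on F4/80low replicate 2, and -1.26 for Klrb1c on F4/80low replicate 3. All PEC arrays were not well above background for these genes.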

How the results depend on the processing

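The number of the 31 genes called stayed within 1.5 times in every alternative except 1: the deposited table, which holds 21 of them, gave 5 called between F4/80high TAMs and PECs. Leaving out each array in turn gave 26 to 28 called between F4/80low TAMs and PECs, 9 to 13 between F4/80high TAMs and PECs and 25 to 28 between the TAM subsets. The slide as a block gave 23, 9 and 28, and the slide with the TAM arrays and PEC replicate 1 (slide 1) alone, its single PEC array assumed to vary like the other groups, gave 24, 9 and 27. Over all genes, called counts between F4/80low TAMs and PECs were 14388 of 36492 with no filter, 4904 with the slide as a block and 4127 on slide 1; between F4/80high TAMs and PECs they were 5631 and 4894 with the slide as a block and on slide 1. Centring on the median moved the median of all genes to -0.56, -0.16 and -0.40 in the 3 comparisons, and gave 24 higher and 3 lower (Cd4, Gzmk and Il7r) between the subsets. The cause was not tested for any of these changes beyond the fewer arrays or genes.

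With pairing of replicate numbers, the block over 9 arrays gave 28, 14 and 26 genes called; Cd6 (1.13, adjusted p = 0.0379) and Gimap6 (-1.42, adjusted p = 0.00139) became called between F4/80high TAMs and PECs. The block over the TAM arrays alone, chosen after seeing the data, gave 27 called, and changed no call beyond Cd3e, Gzmk and Nkg7.

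Reversed values were those of differences not called, except Zap70. Between F4/80low TAMs and PECs, Cd4 was -0.19 with median centring and -0.12 with the slide as a block or slide 1 alone, and Cd28 was 0.14 with the slide as a block or slide 1 alone and 0.28 without PEC replicate 2. Between F4/80high TAMs and PECs, quantile normalization gave -0.17 for Gimap3, -0.05 for Il2rb and Cd96, -0.04 for Tcf7 (-0.03 with normexp), -0.15 for Cd3g and -0.08 for Gimap4. Median centring gave -0.05 for Nkg7, -0.03 for Cd3g and -0.02 for Gimap4, and the deposited table -0.10 for Gimap4. The slide as a block and slide 1 alone gave -0.69 for Cd3e, -0.04 for Nkg7, -0.45 for Cd3g and -0.34 for Gimap4. For Zap70 the mean of its probes gave 0.07 and its other probe 1.57. Leaving out each array in turn gave -0.01 to 0.78 for Cd3e, -0.02 to 0.42 for Cd3g, -0.19 to 0.38 for Gimap4 and -0.26 to 1.25 for Gzmb between F4/80high TAMs and PECs, and -0.66 to 0.28 for Cd28 between F4/80low TAMs and PECs. Dim probes limit the rest: 14 of the 31 differences of F4/80low TAMs against PECs and 17 between the subsets are bounds.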
